A study of Homo sapiens with 5 samples.

Results

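The 45 genes described here are commonly used to tell epithelial, basal and mesenchymal states of carcinoma cells apart. They were chosen by name, but with earlier results of these data known. All 45 are among the 26506 gene symbols of the deposited tables. Of them 21 mark epithelial cells, 5 mark basal epithelium and 19 mark mesenchymal cells. They were measured by RNA sequencing in 22Rv1, an established human prostate carcinoma line with luminal features, after lentiviral overexpression of ESM1. ESM1, also called endocan, is a secreted proteoglycan best known from endothelial cells. The groups were ESM1, set against Vector-1, and ESM1-NLS and ESM1-NES, both set against Vector-2, with 1 library in each of the 5 groups. NLS and NES are the usual abbreviations for a nuclear localisation and a nuclear export signal, which the labels do not spell out. All groups share the 22Rv1 background, growth in medium with 10% serum and harvest 72 hours after lentivirus. The promoter of the constructs, and whether the infected cells were selected or cloned, are not given in the sources used here.

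Epithelial cells are held together by E-cadherin junctions, desmosomes and tight junctions and carry a keratin network. In prostate, luminal cells use the simple keratins KRT8 and KRT18, while basal cells use KRT5 under the transcription factor TP63. In epithelial-mesenchymal transition, factors of the SNAI, ZEB and TWIST families repress junction genes such as CDH1 and CRB3, and the cells gain vimentin, N-cadherin and fibronectin. Carcinoma cells can also occupy mixed states in which parts of both programmes are present.

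Depth was about 14.1 M reads in ESM1 and 15.5 M reads in Vector-1, both estimated from the deposited values. The ESM1-NLS library held 20.0 M reads and ESM1-NES 18.4 M reads, against 24.3 M reads in Vector-2. ESM1 and Vector-1 come from a first deposited table and the other libraries from a second. ESM1 itself was at 2437 FPKM with ESM1 against 0 with Vector-1, and at 2627 with ESM1-NLS and 3431 with ESM1-NES against 0 with Vector-2, which matches the labels. FPKM scales the fragments of a gene by transcript length and by library size, so levels can be compared between genes. All 10 prostate luminal markers were at 1 FPKM or more in every library. Markers of other cell types summed to 0.99 to 1.87 FPKM for endothelium (7 genes, with CDH5 and KDR at 0 in every library), 5.41 to 10.97 FPKM for fibroblasts and smooth muscle (11 genes, of which ACTA2 was the highest) and 3.39 to 5.43 FPKM for leukocytes (8 genes, of which CD68 was the highest). Because no group has a second library, no comparison below has a test across samples. The 95% intervals given are exact limits on the reads used, rescaled to the ratio of FPKM, and they cover counting error only. Where the length used for a gene differs between libraries, this rescaling moves the limits. For ESM1 and Vector-1 the reads themselves were estimated, so intervals that involve them are approximate.

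With 1 FPKM as the lower limit, 30 of the 45 genes were expressed in ESM1 and 31 in Vector-1, and 32 in ESM1-NLS and 31 in ESM1-NES against 30 in Vector-2. Over all 26506 genes the share expressed was 46.6% in ESM1 and 46.2% in Vector-1, and 49.1% in ESM1-NLS and 48.3% in ESM1-NES against 49.0% in Vector-2. Of the 45 genes, 29 were expressed in all 5 libraries. The epithelial programme was nearly complete, with 19 of 21 genes expressed in every library. The remaining 2, MUC1 and RAB25, crossed 1 FPKM in some libraries. Of the 5 basal genes 2 were expressed throughout, and of the 19 mesenchymal genes 8 were. The other mesenchymal genes lay at the limit in 2 cases, SNAI2 and S100A4, and below it in every library in 9. The 12 genes of all classes that stayed below the limit everywhere had no value above 0.69 FPKM. In bulk RNA, fewer cells of a type and less RNA per cell cannot be told apart.

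**Figure D1:**
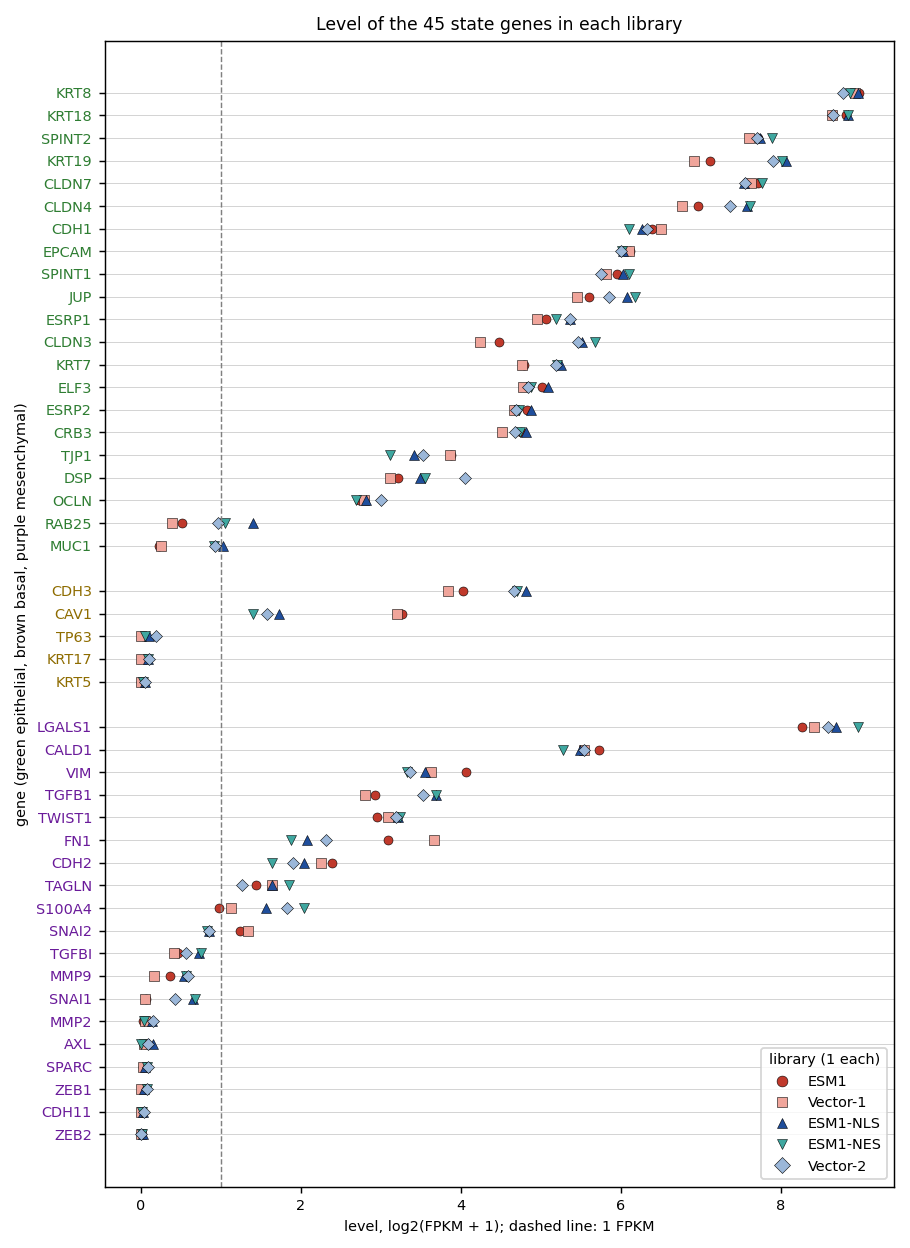
Expression of each of the 45 genes in the 5 libraries, with genes grouped by class down the page and log2(FPKM + 1) across, where each point is 1 library and the dashed line marks 1 FPKM. KRT8 and KRT18 head the epithelial genes with values between 396 and 499.6 FPKM, LGALS1 is the highest mesenchymal gene at 306 to 499 FPKM, and KRT5, TP63, ZEB1 and ZEB2 lie at or near 0.

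Adherens junctions and desmosomes came first among the epithelial roles. CDH1, which encodes E-cadherin, was at 82.6 FPKM with ESM1 against 89.5 with Vector-1, and at 75.9 with ESM1-NLS and 67.8 with ESM1-NES against 79.4 with Vector-2. Each form of ESM1 thus had slightly less CDH1 than its own vector, and the highest and lowest libraries differed 1.32-fold. JUP, or plakoglobin, which links cadherins to the cytoskeleton in both kinds of junction, was at 47.7 FPKM with ESM1 against 42.6 with Vector-1, and at 66.2 with ESM1-NLS and 71.4 with ESM1-NES against 56.9 with Vector-2. DSP, the desmosomal plaque protein desmoplakin, was at 8.28 FPKM with ESM1 against 7.70 with Vector-1, and at 10.2 with ESM1-NLS and 10.7 with ESM1-NES against 15.7 with Vector-2. JUP was higher than the vector with every form. DSP was close to its vector with ESM1, and lower with both tagged forms than in Vector-2, the library they share as control. Vector-2 had the highest DSP of the 5 libraries, and both tagged forms lay above ESM1 and Vector-1.

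Tight junction and polarity genes spanned a wide range of levels. CLDN7, a claudin of the tight junction strand and the lateral membrane, was at 209 FPKM with ESM1 against 196 with Vector-1, and at 184 with ESM1-NLS and 216 with ESM1-NES against 186 with Vector-2. CLDN4 was at 124 FPKM with ESM1 against 108 with Vector-1, and at 189 with ESM1-NLS and 195 with ESM1-NES against 164 with Vector-2. CLDN3, whose gene adjoins CLDN4 in the RefSeq order of protein-coding genes, was at 21.3 FPKM with ESM1 against 17.9 with Vector-1, and at 44.6 with ESM1-NLS and 50.1 with ESM1-NES against 43.0 with Vector-2. On FPKM CLDN4 and CLDN3 were above the vector with every form, although the interval of CLDN3 in ESM1-NLS (0.955 to 1.13) holds 1. Relative to the median of genes of like length and GC content, the log2 difference of CLDN3 was 0.06 in ESM1, -0.06 in ESM1-NLS and -0.07 in ESM1-NES. That of CLDN4 was 0.06, 0.01 and 0.01. Both genes were lowest in the ESM1 and Vector-1 libraries. CLDN3 made up 6.02% of the summed FPKM of these 3 claudins in ESM1 against 5.58% in Vector-1, and 10.7% in ESM1-NLS and 10.9% in ESM1-NES against 10.9% in Vector-2. The scaffold TJP1, or ZO-1, was at 13.6 FPKM in both ESM1 and Vector-1, and at 9.71 FPKM with ESM1-NLS and 7.70 with ESM1-NES against 10.52 with Vector-2. The tight junction protein occludin (OCLN) ranged from 5.45 to 7.0 FPKM and the polarity protein CRB3 from 21.8 to 27.2 FPKM over the 5 libraries.

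The promoters of CLDN7 and CRB3 are shown because they hold the most copies, among the genes with a window, of the 6-letter E-box to which SNAI and ZEB factors can bind, CACCTG on one strand and CAGGTG on the other. Each window runs from 250 bases before to 50 bases after a RefSeq start site, in GRCh38.p14 and read 5′ to 3′ on the strand of the gene, with E-boxes in capitals. CLDN7 lies at chr17:7262429-7262728 on the minus strand and CRB3 at chr19:6464021-6464320 on the plus strand.

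CLDN7: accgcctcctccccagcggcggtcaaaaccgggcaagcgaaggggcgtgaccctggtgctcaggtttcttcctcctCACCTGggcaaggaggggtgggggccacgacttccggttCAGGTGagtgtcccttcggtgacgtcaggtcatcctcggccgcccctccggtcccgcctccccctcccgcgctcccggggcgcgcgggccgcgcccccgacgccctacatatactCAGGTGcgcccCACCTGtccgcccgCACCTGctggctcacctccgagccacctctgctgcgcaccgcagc

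CRB3: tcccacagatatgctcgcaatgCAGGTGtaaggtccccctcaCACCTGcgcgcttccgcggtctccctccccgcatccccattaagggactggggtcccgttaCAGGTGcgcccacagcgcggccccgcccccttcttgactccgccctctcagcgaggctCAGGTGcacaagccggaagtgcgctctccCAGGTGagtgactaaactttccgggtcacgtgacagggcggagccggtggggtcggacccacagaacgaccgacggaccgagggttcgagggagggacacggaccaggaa

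Both windows hold 5 copies, a number reached in 33 of 35116 RefSeq windows, or 0.094%. Windows were found for 27 of the 45 genes, among them 13 of the 21 epithelial genes but not CDH1. At least 1 copy lay in a window of 11 of 13 epithelial genes (84.6%), of 1 of 3 basal genes and of 3 of 11 mesenchymal genes, compared with 24.1% of the 27305 genes with a RefSeq window. Several genes have more than 1 window, and a match describes letters, not binding. CLDN7 varied little, with 1.17-fold between its highest and lowest libraries, and CRB3 spanned 1.25-fold.

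Of the simple keratins, KRT8 and KRT18 were among the most abundant members and KRT7 was far lower. KRT8 was at 499.6 FPKM with ESM1 against 484 with Vector-1, and at 496 with ESM1-NLS and 466 with ESM1-NES against 438 with Vector-2. Its filament partner KRT18, encoded next to it, was at 449 FPKM with ESM1 against 396 with Vector-1, and at 456 with ESM1-NLS and 457 with ESM1-NES against 399.9 with Vector-2. On the FPKM scale both were higher with every form of ESM1 than with its vector, although the difference of KRT8 was -0.03 on log2(TPM + 1) in ESM1-NES, and the ratio of KRT8 to KRT18 was 1.11 in ESM1 against 1.22 in Vector-1, and 1.09 in ESM1-NLS and 1.02 in ESM1-NES against 1.09 in Vector-2. KRT19, a small keratin of simple epithelia, was at 138 FPKM with ESM1 against 119 with Vector-1, and at 267 with ESM1-NLS and 257 with ESM1-NES against 238 with Vector-2. KRT19 was therefore far lower in the libraries of the first table than in those of the second, whichever construct the cells carried. KRT7, a keratin of ducts and other simple epithelia, ranged from 26.1 to 37.2 FPKM.

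Among surface proteins, EPCAM, an epithelial adhesion molecule, varied least of the genes expressed throughout. It was at 68.1 FPKM with ESM1 against 67.8 with Vector-1, and at 64.1 with ESM1-NLS and 63.6 with ESM1-NES against 63.2 with Vector-2, a span of 1.08-fold. The membrane protease inhibitor SPINT1 was at 60.9 FPKM with ESM1 against 55.0 with Vector-1, and at 64.4 with ESM1-NLS and 67.4 with ESM1-NES against 52.7 with Vector-2. SPINT1 was above the vector with each form, and the related SPINT2 ranged from 194 to 236 FPKM. MUC1, a transmembrane mucin, was at 0.17 FPKM with ESM1 against 0.19 with Vector-1, and at 1.04 with ESM1-NLS and 0.89 with ESM1-NES against 0.91 with Vector-2. RAB25, a small GTPase of apical recycling, was at 0.43 FPKM with ESM1 against 0.31 with Vector-1, and at 1.65 with ESM1-NLS and 1.07 with ESM1-NES against 0.95 with Vector-2. These 2 genes were the weakest of the epithelial set in every library.

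The epithelial regulators were expressed at moderate levels. ESRP1 and ESRP2, RNA-binding proteins that maintain epithelial splicing, ranged from 30.01 to 40.2 FPKM and from 24.2 to 28.4 FPKM. ELF3, an epithelial ETS transcription factor, was at 31.2 FPKM with ESM1 against 26.5 with Vector-1, and at 33.05 with ESM1-NLS and 28.4 with ESM1-NES against 27.7 with Vector-2. ELF3 was above its vector with each form on FPKM, least so with ESM1-NES, where its difference was -0.08 on log2(TPM + 1).

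Basal genes formed a nearly silent core and an expressed pair. The basal keratins KRT5 and KRT17 and the basal transcription factor TP63 had no value above 0.14 FPKM in any library. CDH3, which encodes P-cadherin and adjoins CDH1, was at 15.3 FPKM with ESM1 against 13.3 with Vector-1, and at 27.02 with ESM1-NLS and 25.0 with ESM1-NES against 24.4 with Vector-2. CAV1, the caveolar coat protein caveolin-1, was at 8.61 FPKM with ESM1 against 8.20 with Vector-1, and at 2.32 with ESM1-NLS and 1.65 with ESM1-NES against 1.98 with Vector-2. CDH3 was low and CAV1 high in the first table relative to the second, and CAV1 had the widest span of the 29 genes expressed throughout, 5.22-fold.

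Of the transcription factors of the transition, most were at low levels. ZEB1 and ZEB2 had no value above 0.06 FPKM, and SNAI1 was at 0.05 FPKM with ESM1 against 0.04 with Vector-1, and at 0.58 with ESM1-NLS and 0.60 with ESM1-NES against 0.35 with Vector-2. SNAI2 was at 1.37 FPKM with ESM1 against 1.54 with Vector-1, and at 0.81 with ESM1-NLS and 0.77 with ESM1-NES against 0.81 with Vector-2. TWIST1 was the exception, at 6.74 FPKM with ESM1 against 7.51 with Vector-1, and at 8.27 with ESM1-NLS and 8.45 with ESM1-NES against 8.12 with Vector-2. TWIST1 was thus expressed beside a nearly complete epithelial set in every library, vectors included.

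Cytoskeletal and cytosolic mesenchymal proteins were present at unequal levels. LGALS1, the sugar-binding protein galectin-1, was at 306 FPKM with ESM1 against 340.4 with Vector-1, and at 411 with ESM1-NLS and 499 with ESM1-NES against 382 with Vector-2. VIM, the mesenchymal filament protein vimentin, was at 15.7 FPKM with ESM1 against 11.4 with Vector-1, and at 10.7 with ESM1-NLS and 9.05 with ESM1-NES against 9.29 with Vector-2. VIM was highest in the ESM1 library, where it exceeded all 4 others. CALD1, the actin-binding protein caldesmon, ranged from 37.9 to 51.8 FPKM, lowest in ESM1-NES and highest in ESM1. TAGLN, the actin-binding protein transgelin, was at 1.72 FPKM with ESM1 against 2.13 with Vector-1, and at 2.12 with ESM1-NLS and 2.62 with ESM1-NES against 1.41 with Vector-2. S100A4, a calcium-binding protein of motile cells, ranged from 0.98 FPKM in ESM1 to 3.12 FPKM in ESM1-NES and rested on at most 27 reads in any library.

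Mesenchymal cadherins and matrix proteins were low. CDH2, which encodes N-cadherin, was at 4.25 FPKM with ESM1 against 3.75 with Vector-1, and at 3.12 with ESM1-NLS and 2.11 with ESM1-NES against 2.73 with Vector-2. CDH1 exceeded it 19.4-fold in ESM1 against 23.9-fold in Vector-1, and 24.3-fold in ESM1-NLS and 32.2-fold in ESM1-NES against 29.1-fold in Vector-2, so E-cadherin RNA dominated in all 5 libraries. FN1, the matrix protein fibronectin, was at 7.5 FPKM with ESM1 against 11.7 with Vector-1, and at 3.24 with ESM1-NLS and 2.68 with ESM1-NES against 3.98 with Vector-2. Each form had less FN1 than its vector, and the vectors themselves were further apart than any form was from its own. The mesenchymal cadherin CDH11 and the matrix proteins SPARC and TGFBI had no value above 0.69 FPKM.

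Of the signals, TGFB1, the cytokine that can induce the transition, was at 6.58 FPKM in ESM1 against 5.97 FPKM in Vector-1, and at 11.9 FPKM in both ESM1-NLS and ESM1-NES against 10.6 FPKM in Vector-2. The receptor tyrosine kinase AXL and the matrix metalloproteases MMP2 and MMP9 had no value above 0.51 FPKM.

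The first comparison, ESM1 against Vector-1, asks what overexpression of the unmodified form does. No gene of the 3 classes passed a 1.5-fold difference on the scale used. A mean of at least 1 FPKM over both libraries was found for 31 of the 45 genes, and with differences taken on the log2(FPKM + 1) scale 0 were higher by 1.5-fold and 0 lower, while of all 12296 genes so counted 1.19% were higher and 0.325% lower. Inside these limits 17 of 19 epithelial genes were above 0 (median difference 0.11), as were 4 of 10 mesenchymal genes (median -0.12). The median over all genes was 0.01, and 6498 of all 12296 lay above 0. On TPM, here FPKM rescaled to the same total in each library, the counts were 15 of 19 and 4 of 10, with EPCAM and TJP1 at -0.02 and -0.03. Centred on genes of like length and GC content, the epithelial median was 0.04 and the mesenchymal median -0.13. Fibronectin was lowest relative to its vector, with a ratio of FPKM of 0.643 (0.591 to 0.700) and a difference of -0.57, just short of the 1.5-fold limit on the log2(FPKM + 1) scale and past it on the plain ratio. Vimentin was highest, at a ratio of 1.38 (1.2 to 1.59), so these 2 mesenchymal genes lay on opposite sides, and CALD1 was at 1.14 (1.08 to 1.2). The largest epithelial ratios were small: 1.19 (1.02 to 1.38) for both CRB3 and CLDN3, 1.18 (1.09 to 1.27) for ELF3 and 1.16 (1.09 to 1.22) for KRT19. CDH1 had a ratio of 0.922 (0.890 to 0.956). Of the basal pair, CDH3 had a ratio of 1.15 (1.04 to 1.27) and CAV1 of 1.05 (0.895 to 1.23). Transgelin at 0.808 (0.496 to 1.30) and S100A4 at 0.824 (0.236 to 2.71) had too few reads to place on either side of the vector. Set against Vector-2, from the second table, FN1 with ESM1 differed by 0.77 and the mesenchymal median was 0.18, both of the opposite sign.

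In ESM1-NLS against Vector-2, again no gene of the set passed 1.5-fold on the log2(FPKM + 1) scale. Of 31 genes counted 0 were higher and 0 lower, with 0.369% of all 13000 genes higher and 0.5% lower. Epithelial genes lay above 0 in 14 of 20 cases (median 0.10) and mesenchymal genes in 6 of 9 (median 0.10). The median over all genes was 0.02, and 7036 of all 13000 lay above 0. Desmoplakin had the lowest ratio, 0.654 (0.618 to 0.692), and its difference of -0.57 was just inside the limit on the log2(FPKM + 1) scale. In the authors' deposited table DSP was the only gene of the 45 with a PPEE, a score of theirs that is no p-value, below 0.05 in this comparison, at 0.000764 with a fold change of 0.645, and 0.592% of the 20282 genes scored there were below 0.05. RAB25 had a ratio of 1.74 (0.975 to 3.13) from 30 reads in ESM1-NLS against 23 reads in Vector-2, an interval that holds 1. SPINT1 at 1.22 (1.16 to 1.29), ELF3 at 1.19 (1.12 to 1.27) and JUP at 1.16 (1.12 to 1.21) were the next epithelial genes above the vector. TAGLN had a ratio of 1.5 (1.01 to 2.24), VIM of 1.15 (1.01 to 1.31), FN1 of 0.814 (0.729 to 0.909) and S100A4 of 0.768 (0.393 to 1.46). The ratio of reads scaled by depth alone was 1.47 for TAGLN and 1.59 for RAB25. The basal pair stood at 1.17 (0.901 to 1.52) for CAV1 and 1.11 (1.04 to 1.18) for CDH3.

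In ESM1-NES against Vector-2 1 gene of 31 counted passed the limit, and 0 were 1.5-fold lower, where 0.388% of all 12902 genes were higher and 2.16% lower. That gene was TAGLN, with a ratio of 1.86 (1.25 to 2.78) and a difference of 0.59, which was 0.46 and short of the limit when centred on genes of like length. It rested on 57 reads in ESM1-NES and 49 reads in Vector-2, and its ratio of reads scaled by depth alone was 1.53, since the deposited values imply an effective length of 1179 bases in ESM1-NES against 1429 bases in Vector-2. DSP had a ratio of 0.683 (0.644 to 0.723), TJP1 of 0.732 (0.679 to 0.789), OCLN of 0.779 (0.704 to 0.861) and CDH1 of 0.854 (0.826 to 0.882), so 4 structural genes of the junctions were lower than in the vector. All 4 are over 4000 bases long, and 83.9% of all counted genes of that length lay below 0. Other junction genes were higher on FPKM, namely JUP at 1.25 (1.2 to 1.31), CLDN4 at 1.19 (1.15 to 1.23), CLDN3 at 1.17 (1.07 to 1.26) and CLDN7 at 1.16 (1.12 to 1.2). SPINT1 was also higher, at 1.28 (1.22 to 1.35). Centred on genes of like length and GC content, the differences were 0.12 for JUP, 0.01 for CLDN4, -0.07 for CLDN3 and -0.00 for CLDN7. Among mesenchymal genes LGALS1 had a ratio of 1.31 (1.25 to 1.36), FN1 of 0.673 (0.596 to 0.759), CALD1 of 0.831 (0.793 to 0.871) and CDH2 of 0.773 (0.630 to 0.946). CAV1 stood at 0.833 (0.617 to 1.12) and CDH3 at 1.02 (0.960 to 1.09).

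The class medians of this comparison depended on the scale. On FPKM 15 of 20 epithelial genes lay above 0 (median 0.07) and 5 of 9 mesenchymal genes (median 0.05). The median of all genes was -0.03, and 5910 of all 12902 lay above 0. On TPM, which gives every library the same total, the median of all genes was shifted by -0.11 relative to FPKM, and 8 of 20 epithelial genes (median -0.04) and 4 of 9 mesenchymal genes (median -0.06) lay above 0. KRT8, KRT19, KRT7, EPCAM, CRB3, ESRP2, ELF3, CDH3 and TWIST1 then had the opposite sign, with differences between -0.11 and -0.01. DSP at -0.64 and FN1 at -0.59 passed the 1.5-fold limit on TPM. For ESM1-NES the authors' deposited table gave 0 of the 45 genes a PPEE score below 0.05, the lowest being 0.938, while 0.578% of the 20056 genes scored had one.

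**Figure D2:**
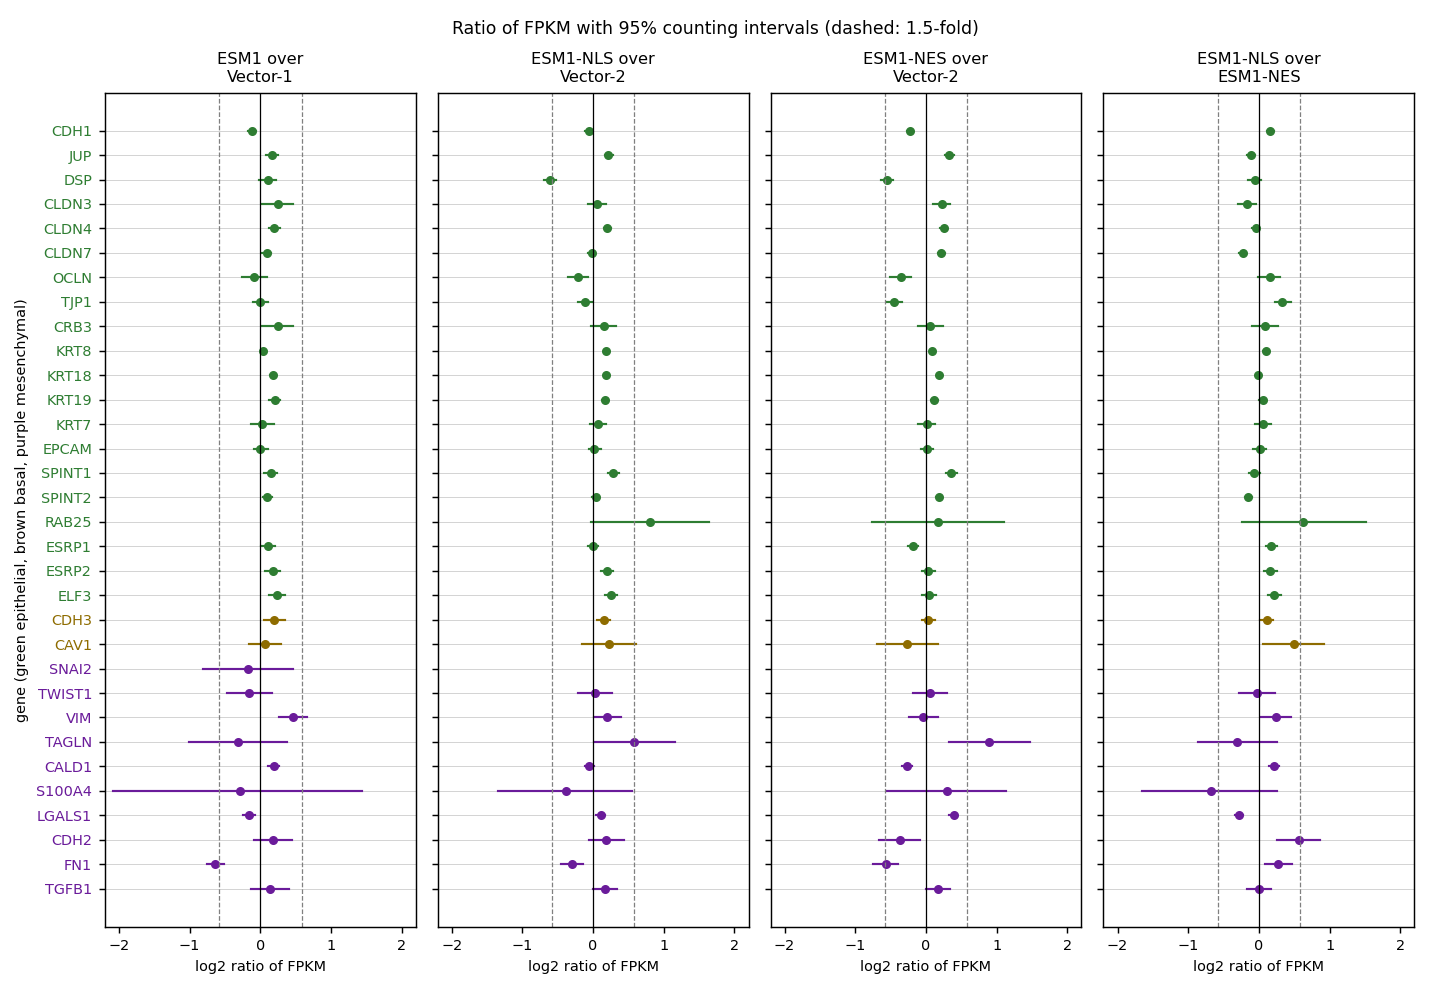
Log2 ratio of FPKM for the 3 forms against their own vectors and for ESM1-NLS against ESM1-NES, for members counted in those comparisons. Points are ratios, bars are 95% intervals on reads, rescaled to the ratio of FPKM, that cover counting error only, and dashed lines mark 1.5-fold. For ESM1 against Vector-1 the intervals rest on estimated reads. Most points lie close to 0, the ratio of FN1 is 0.643 with ESM1, 0.814 with ESM1-NLS and 0.673 with ESM1-NES, and that of DSP is 1.08 with ESM1, 0.654 with ESM1-NLS and 0.683 with ESM1-NES, of which the tagged forms share the Vector-2 library.

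ESM1-NLS was also set against ESM1-NES directly, since the tagged forms share the Vector-2 library. Of 31 genes counted 0 were 1.5-fold higher and 0 lower, with 0.774% of all 12915 genes higher and 0.356% lower. N-cadherin was higher with ESM1-NLS, at a ratio of 1.48 (1.2 to 1.82), as were CAV1 at 1.41 (1.04 to 1.90), TJP1 at 1.26 (1.17 to 1.37), VIM at 1.18 (1.02 to 1.37), ELF3 at 1.16 (1.09 to 1.24) and CDH1 at 1.12 (1.08 to 1.16). CDH3 was at 1.08 (1.01 to 1.15). Galectin-1 at 0.823 (0.788 to 0.859) and CLDN7 at 0.853 (0.822 to 0.885) were lower with ESM1-NLS. DSP had a ratio of 0.958 (0.897 to 1.02). For RAB25 at 1.54 (0.847 to 2.86) and S100A4 at 0.625 (0.317 to 1.2) the intervals hold 1. Over 10 groups of all counted genes by length, the median difference ran from -0.21 for the shortest to 0.21 for the longest. Centred on genes of like length, CDH1 was at 0.01 (0.16 before centring), TJP1 at 0.09 (0.30) and LGALS1 at -0.07 (-0.28). CDH2 was then at 0.28 (0.41), CAV1 at 0.28 (0.33), VIM at 0.22 (0.22) and DSP at -0.27 (-0.06). Class medians were 0.05 for epithelial and 0.00 for mesenchymal genes on FPKM, beside 0.06 for all genes, and 0.19 and 0.13 on TPM, where the median of all genes is shifted by 0.13.

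**Figure D3:**
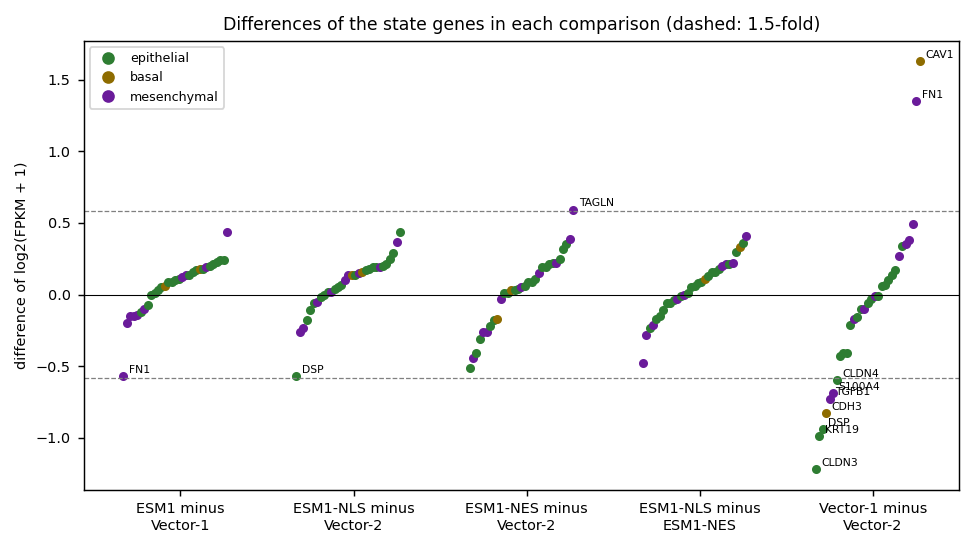
Difference of log2(FPKM + 1) for each counted member in 5 comparisons, coloured by class, with dashed lines at 1.5-fold. Where both libraries come from the same table, 1 point passes the lines (TAGLN in ESM1-NES), whereas between the vectors, which come from different tables, 9 points do.

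The vectors were also set against each other, although they come from tables that were normalised separately. Between Vector-1 and Vector-2, 2 of 31 genes were 1.5-fold higher in Vector-1 (background 4.91%) and 7 were lower (background 14.3%). Caveolin-1 had a ratio of 4.14 (3.35 to 5.15) and fibronectin of 2.93 (2.69 to 3.20), while CLDN3 stood at 0.417 (0.369 to 0.471), DSP at 0.492 (0.459 to 0.526), KRT19 at 0.503 (0.481 to 0.525), CDH3 at 0.546 (0.502 to 0.594), TGFB1 at 0.566 (0.485 to 0.658), CLDN4 at 0.658 (0.630 to 0.687) and S100A4 at 0.469 (0.184 to 1.06). The vectors differed from each other by more than ESM1 did from Vector-1 in 21 of 31 genes (67.7%, and 77.4% of all genes), by more than ESM1-NLS did from Vector-2 in 24 of 30 (80.0%, and 77.9% of all genes), and by more than ESM1-NES did from Vector-2 in 19 of 30 (63.3%, and 65.6% of all genes). Both libraries of the first table lay above all 3 of the second in 8 of 31 genes (27.4% of all genes did) and below them in 12 (40.4% of all genes did). CAV1, SNAI2 and FN1 were at least 1.5-fold higher in both libraries of the first table than in all 3 of the second (3.07% of all genes were), and CLDN3, KRT19, CDH3, S100A4 and TGFB1 were lower by that margin (10.1% of all genes were). The table, the vector and the cultures cannot be told apart in these values.

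Differences varied with transcript length, most steeply in ESM1-NES. Over 10 groups of all counted genes by length, the median was 0.07 for the shortest and -0.07 for the longest in ESM1, -0.03 and -0.11 in ESM1-NLS with up to 0.06 between them, and 0.17 and -0.34 in ESM1-NES. In ESM1-NES all 15 genes of up to 2000 bases lay above 0 on FPKM, among them the keratins, the claudins, EPCAM and LGALS1, and all 6 genes over 4000 bases lay below 0, namely CDH1, DSP, OCLN, TJP1, CALD1 and FN1. Over all counted genes the medians were 0.13 for up to 2000 bases, where 25.9% lay below 0, and -0.22 for over 4000 bases, where 83.9% did. On TPM 9 of the 15 short genes lay above 0 and 6 of the 6 long ones below. The same 6 long genes lay below 0 in ESM1-NLS, where 60.6% of all long genes did, and 3 of the 6 in ESM1, where 61.3% did. Expressed epithelial genes had a median length of 1732 bases and mesenchymal ones of 2050 bases, against 2788 bases for all expressed genes. Relative to the median of genes of like length, the difference of DSP was -0.17 in ESM1-NES and -0.45 in ESM1-NLS, that of FN1 was -0.10 in ESM1-NES and -0.50 in ESM1, and that of CDH1 was -0.08 in ESM1-NES. TAGLN was at 0.46 and LGALS1 at 0.22 in ESM1-NES on that basis. GC content also differed between the classes, with a median of 58.5% in expressed epithelial genes against 49.0% in all expressed genes. Centred on genes of like length and GC content, JUP was at 0.02 in ESM1-NLS and 0.12 in ESM1-NES, SPINT1 was at 0.09 and 0.11, and the epithelial median was 0.04 in ESM1, 0.00 in ESM1-NLS and -0.07 in ESM1-NES. The length limits and this joint centring were chosen after the values were seen.

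**Figure D4:**
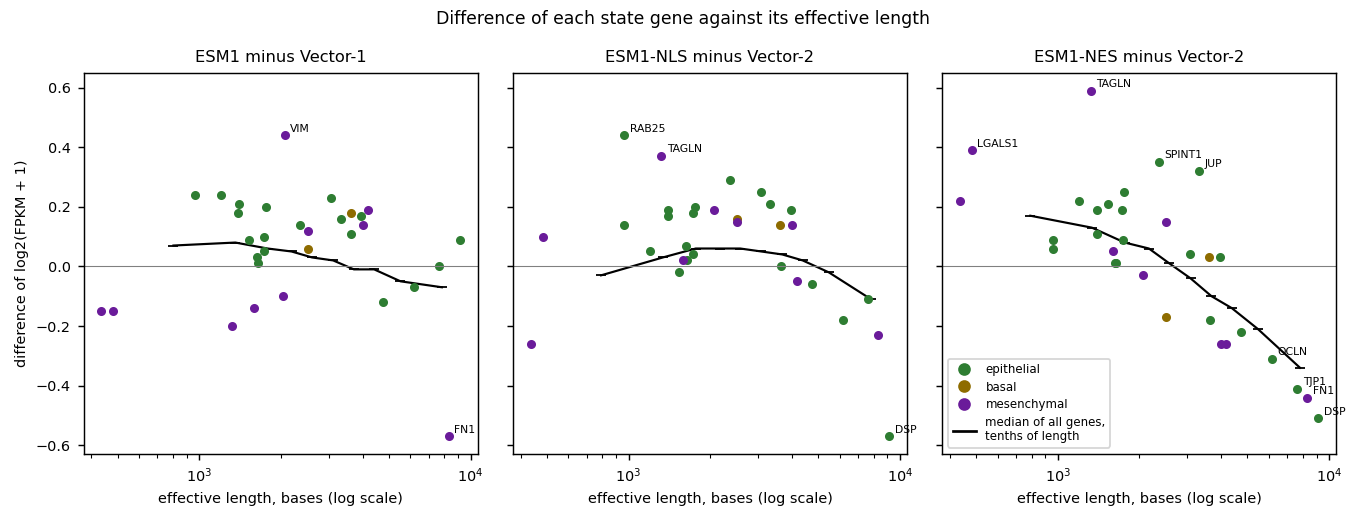
Difference of log2(FPKM + 1) against effective transcript length on a log axis, for each form of ESM1 against its vector, where coloured points are members by class, and the line joins the medians of all counted genes in 10 groups of equal size by length. In ESM1-NES the line runs from 0.17 for the shortest group to -0.34 for the longest, with members over 4000 bases below 0 and those of up to 2000 bases above 0.

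Other genes of the same programmes were described from lists set by role. Of 34 further epithelial junction and differentiation genes, 32 were counted in ESM1 against Vector-1, with a median of 0.00 and 0 past 1.5-fold in either direction. In ESM1-NLS 33 were counted, with a median of 0.07 and 0 past the limit, and in ESM1-NES 33 with a median of -0.07 and again 0. The largest differences in this epithelial list were, for ESM1, PRSS8, a membrane serine protease, at 6.5 FPKM in ESM1 against 4.38 FPKM in Vector-1 (ratio 1.48), and, for ESM1-NES, EHF, an epithelial ETS factor, at 56.3 FPKM with ESM1-NES against 74.2 with Vector-2 (ratio 0.759). Of 14 further basal genes 4 or 5 were counted, and DST, a long cytolinker of hemidesmosomes (16246 bases), passed the limit at 3.20 FPKM with ESM1-NLS and 3.23 with ESM1-NES against 5.44 with Vector-2.

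Of 30 further mesenchymal genes 14 were counted in each comparison. In ESM1 against Vector-1 their median was -0.01, and 2 passed 1.5-fold: ACTA2, or smooth muscle actin, at 4.19 FPKM in ESM1 against 1.90 FPKM in Vector-1 (ratio 2.21), and CTGF, a matricellular growth factor, at 6.46 FPKM in ESM1 against 3.81 FPKM in Vector-1 (ratio 1.70). Of all 12296 genes counted there, 1.19% were higher by that margin. The 11 fibroblast and smooth muscle markers summed to 8.35 FPKM in ESM1 against 5.41 FPKM in Vector-1, a sum that holds ACTA2 itself as its highest gene. Only 3 of the 11 had a mean of 1 FPKM or more, ACTA2, LUM and COL1A1, and all 3 lay above 0. Whether such cells had a part in this result was not tested. None of the further mesenchymal genes passed the limit with the tagged forms, where the medians were 0.16 in ESM1-NLS and 0.04 in ESM1-NES. MYL9, a myosin light chain, was at 29.6 FPKM with ESM1 against 32.7 with Vector-1, and at 5.77 with ESM1-NLS and 6.19 with ESM1-NES against 4.06 with Vector-2, another gene on which the tables stood far apart. Of 15 genes for TGF-beta ligands, receptors and SMADs 14 were counted, and 0 passed the limit against a vector, while TGFB2 did in ESM1-NLS against ESM1-NES (ratio 1.95). In ESM1-NES 12 of these 14 lay below 0 on FPKM (median -0.19). Of all 12902 counted genes 6959 did, as did 83.9% of those over 4000 bases, a length that most of the 14 exceed. The largest there were TGFB2, a ligand, at 1.67 FPKM with ESM1-NES against 2.94 with Vector-2, SKIL, a SMAD co-repressor, at 2.26 FPKM with ESM1-NES against 3.62 with Vector-2, and the receptor TGFBR1 at 1.66 FPKM with ESM1-NES against 2.63 with Vector-2. Their lengths of 5817, 7136 and 6454 bases place all 3 among the long transcripts.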

How the data were processed

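RNA of 5 libraries of 22Rv1 cells was analysed, 1 per group, with groups taken from the sample titles. Trimmomatic, Bowtie2, RSEM and hg19 are named by the submitters' processing notes, without versions. The authors deposited FPKM, TPM and expected counts for Vector-2, ESM1-NLS and ESM1-NES, per the file headers, with their own fold change and PPEE score. No source used here names the tool that made the score. The deposited table of Vector-1 and ESM1 has no unit, and its values were taken as FPKM. Its depth was estimated from the steps between low values, of which 80.2% of 111 for ESM1 and 85.7% of 105 for Vector-1 came within 0.15 of whole reads. Applied to ESM1-NLS, ESM1-NES and Vector-2, this estimate gave 98.7%, 98.5% and 101.6% of their known sums. No source used here states whether libraries were stranded, and overlapping or antisense genes may share reads.

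Differences were taken between log2(FPKM + 1) values, which understates low genes. A gene was counted at a mean of 1 FPKM or more over both libraries and called past 1.5-fold. With 1 library per group there is no test across samples. Ratios of FPKM carry 95% conditional binomial (Clopper-Pearson) intervals, exact on reads and then rescaled to the ratio of FPKM. Expected counts were rounded to whole numbers. ESM1 and Vector-1 have no expected counts. Their reads were estimated from FPKM, effective length and estimated depth, so intervals that involve them are approximate. Lengths are effective lengths from the deposited counts and FPKM. Named were the 4 epithelial, the basal and the 4 mesenchymal genes with the largest differences per comparison, beside genes described by role. The members and lists were chosen with earlier results of these data known. Promoter windows are from RefSeq (GRCh38.p14). Alternatives were another pseudocount, filter, fold limit, TPM, Vector-2 as control for ESM1, and centring on length or on length and GC content. The analysis used Python 3.11.15, pandas 2.3.3 and scipy 1.17.1 and was tested on simulated data.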

Additional observations from a re-analysis of the deposited data

How the results depend on the processing

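No paired analysis was possible because each group has 1 library, and for the same reason no replicate could be left out. With a pseudocount of 0.1, 1 gene was 1.5-fold lower in ESM1, 1 higher and 1 lower in ESM1-NLS against Vector-2, and 1 lower in ESM1-NLS against ESM1-NES. On TPM, which for ESM1 and Vector-1 is FPKM rescaled to a common total, 1 was lower in ESM1 and 2 in ESM1-NES. The epithelial median of ESM1-NLS against ESM1-NES was 0.19 on TPM. The count of 1 higher gene in ESM1-NES was 0 with a mean of 5 FPKM or more, with a 2-fold limit, and when centred on length or on length and GC content. The mesenchymal median of ESM1-NLS was 0.02 with no filter and -0.01 when centred on length and GC content. Against Vector-2, ESM1 had 3 genes higher, 6 lower and a basal median of 0.52, and the mesenchymal median turned to 0.18. There FN1 at 0.77, CLDN3 at -0.98, DSP at -0.84, KRT19 at -0.78, CDH3 at -0.64 and TGFB1 at -0.61 turned direction and passed the limit. With FPKM rescaled to a common total, the epithelial median of Vector-1 against Vector-2 was 0.01. The cause was not tested in any case. Rescaling for the first table and the joint length and GC centring were chosen after seeing the data. Counting error limits TAGLN, S100A4, RAB25 and SNAI2, and genes under 1 FPKM cannot be ranked.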

Other observations

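Prostate luminal markers described a further side of the epithelial state. In ESM1 against Vector-1 the lowest were the kallikreins, secreted proteases of luminal cells, with ratios of FPKM of 0.659 for KLK2 and 0.716 for KLK3, while 4 of 10 luminal markers lay above 0 and 6 below. In ESM1-NLS the ratio of KLK3 was 1.18 against Vector-2. KLK2 and KLK3 are close paralogs, and how reads shared by them were assigned is not known here.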
